A study of Rattus norvegicus with 10 samples.

Results

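The genes described here are the interleukin, tumour necrosis factor and transforming growth factor cytokines of the rat lumbar spinal cord. They were chosen by name and not by a measured value, though with earlier results of these data known. They are the interleukins Il1a, Il1b, Il6, Il10, Il18 and Il33, the interleukin-1 receptor antagonist Il1rn, the interleukin-1 receptor Il1r1, Tnf and Tgfb1. An array probe was taken for a gene if the RefSeq mRNA that the array files name for it belongs to that gene. Of the 10 genes, 9 were matched, each by 1 probe with 1 spot per array, among 13888 named genes with an mRNA probe, and Il1r1 was not analysed here because no probe matched it. All 9 matched genes passed the filter on dim probes and were tested together with 20286 RNAs.

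The study compared the lumbar enlargement of rats made tolerant to morphine with that of control rats. All animals were male Sprague Dawley rats with no genetic change named in the labels. The 5 rats of the morphine tolerance (MT) group, numbered 1 to 5, received intrathecal injections of 10 μg morphine in 10 μl. These were given morning and afternoon for 7 days. The 5 rats of the normal saline (NS) group, numbered 6 to 10, received 10 μl saline on the same schedule, and the tissue of both groups was taken on the next day, after a last morning injection. RNA from each rat was labelled with Cy3 and hybridized to 1 one-colour lncRNA and mRNA array. The tissue holds every cell type of the cord, so fewer cells of a type and less RNA per cell cannot be told apart. The injections shared by both groups mean that no array shows an uninjected cord.

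Interleukin-1α, interleukin-1β, interleukin-6 and tumour necrosis factor are early signals of inflammation, and in the spinal cord microglia, astrocytes and incoming leukocytes can make them. Interleukin-1 signals through a receptor that the antagonist encoded by Il1rn occupies without activating it, and the decoy receptor encoded by Il1r2 binds the ligand without a signal. Interleukin-10 and transforming growth factor β1 restrain inflammatory cells, while interleukin-18 and interleukin-33 are interleukin-1 relatives, the latter stored in the nuclei of glial and barrier cells. Spinal interleukin-1, interleukin-6 and tumour necrosis factor have been studied for years as signals that oppose opioid analgesia. Genes of this group are often read from promoters that hold sites for NF-κB, AP-1 and C/EBP factors.

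The arrays fell on 3 slides, a slide being the arrays scanned together according to the scan records, and these did not hold the groups evenly: slide 1 held MT rats 1, 3, 4 and 5, slide 2 held MT rat 2 with NS rats 6, 7 and 10, and slide 3 held NS rats 8 and 9. The spots well above background made up 81.1% to 83.9% of the spots on the MT arrays and 58.6% to 79.6% on the NS arrays, with the 2 lowest shares on slide 3. Slide and group therefore overlap in part. The arrays were 1 per rat, so the p-values measure the spread between these rats, and the number of arrays limits the precision. Astrocyte and oligodendrocyte markers, such as Gfap and Mbp, were well above background on all 10 arrays, as were the neuronal markers tested.

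The 220 bases before the annotated transcript start are shown for the 5 cytokine genes with the widest spread between rats of the same group. Sequences and positions are those of RefSeq on GRCr8, written 5′ to 3′ on the strand of the gene, and capitals mark every match to a searched motif on either strand.
Il1a, chr3:136990018-136990237, minus strand: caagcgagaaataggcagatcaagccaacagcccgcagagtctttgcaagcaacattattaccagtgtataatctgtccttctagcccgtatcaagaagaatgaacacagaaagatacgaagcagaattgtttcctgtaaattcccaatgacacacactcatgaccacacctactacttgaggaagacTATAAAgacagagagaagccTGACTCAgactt
Il1b, chr3:137036582-137036801, minus strand: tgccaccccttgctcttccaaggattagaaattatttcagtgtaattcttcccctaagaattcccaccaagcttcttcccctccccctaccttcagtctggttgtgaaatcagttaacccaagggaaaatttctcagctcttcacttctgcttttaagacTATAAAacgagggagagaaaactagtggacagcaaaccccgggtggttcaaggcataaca
Il1rn, chr3:27520102-27520321, plus strand: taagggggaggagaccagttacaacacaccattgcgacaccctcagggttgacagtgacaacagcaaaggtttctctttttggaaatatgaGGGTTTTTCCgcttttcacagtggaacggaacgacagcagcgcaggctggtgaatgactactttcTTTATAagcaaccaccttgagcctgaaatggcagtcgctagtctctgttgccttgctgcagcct
Il6, chr4:5894576-5894795, minus strand: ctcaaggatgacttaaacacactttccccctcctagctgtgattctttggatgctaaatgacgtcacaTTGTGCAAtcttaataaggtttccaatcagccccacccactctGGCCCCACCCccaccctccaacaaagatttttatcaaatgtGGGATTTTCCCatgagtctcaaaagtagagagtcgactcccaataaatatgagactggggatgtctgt
Tnf, chr20:3626465-3626684, plus strand: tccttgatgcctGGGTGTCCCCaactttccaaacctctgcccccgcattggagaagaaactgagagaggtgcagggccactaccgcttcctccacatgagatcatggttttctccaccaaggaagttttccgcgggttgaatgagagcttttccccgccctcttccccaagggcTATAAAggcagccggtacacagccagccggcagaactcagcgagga
The starts used for Il1a and Il1rn lie 219 and 10486 bases inside the outer edge of the gene, at the start of an inner transcript. In the 250 bases before each start, 4 motifs were searched on both strands. The TATA box was searched as TATAAA. The NF-κB core was searched as 3 guanines, any 5 bases and 2 cytosines. The AP-1 motif was TGANTCA. The C/EBP motif was TTNNGCAA, where N stands for any base. Of 33469 windows of the same length before annotated starts, 12.9% held the TATA box, 42.3% the NF-κB core, 6.34% the AP-1 motif and 9.22% the C/EBP motif. Il1a held a TATA box 32 bases before its start, a second on the reverse strand at 237 bases, outside the stretch printed, and an AP-1 motif at 12 bases, and Il1b held a TATA box 60 bases before its start. Il1rn held an NF-κB core at 129 bases and a TATA box on the reverse strand at 64 bases, while Tnf held an NF-κB core at 208 bases and a TATA box at 46 bases. Il6 held NF-κB cores at 109, 68 and 67 bases, the last 2 overlapping, and a C/EBP motif at 152 bases. Of the tested genes not printed, Il18 held an NF-κB core at 31 bases and Tgfb1 held overlapping ones at 235, 234 and 233 bases. Il33 held a TATA box at 29 bases and a C/EBP motif on the reverse strand at 92 bases. The matches were thus not confined to the 5 genes printed. These matches describe the letters alone, and a motif not found says only that its letters are not in that window.

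The ranges of the MT and NS groups overlapped for each of the 9 cytokine mRNAs, as they did for most RNAs tested. Il1a and Il1rn were the 2 genes past the study criteria, a linear fold change above 1.5 with an unadjusted P-value below 0.05, both higher in the MT group. Read on the log2 scale, as the methods print it, a fold threshold of 1.5 lay above the largest log2 fold change of the 9 genes, 1.27. The share of all RNAs past that threshold was not computed. Over all 20286 RNAs tested, 2.74% met the study criteria with the linear fold, 1.74% with a higher and 0.996% with a lower level in the MT group. None of the 9 passed an adjusted p of 0.05 (Benjamini-Hochberg over all RNAs, limma), a call that 0.197% of all RNAs passed, and 2 of the 9 had an unadjusted P-value below 0.05, as did 16.4% of all RNAs. Groups without overlap were found for 0 of the 9 genes and for 5.64% of all RNAs, a share at which 9 genes may well hold none. The mean was higher in the MT group for 6 genes and lower for 3, with a median log2 fold change of 0.47 over the 9 genes against -0.00 over all RNAs tested.

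**Figure D1:**
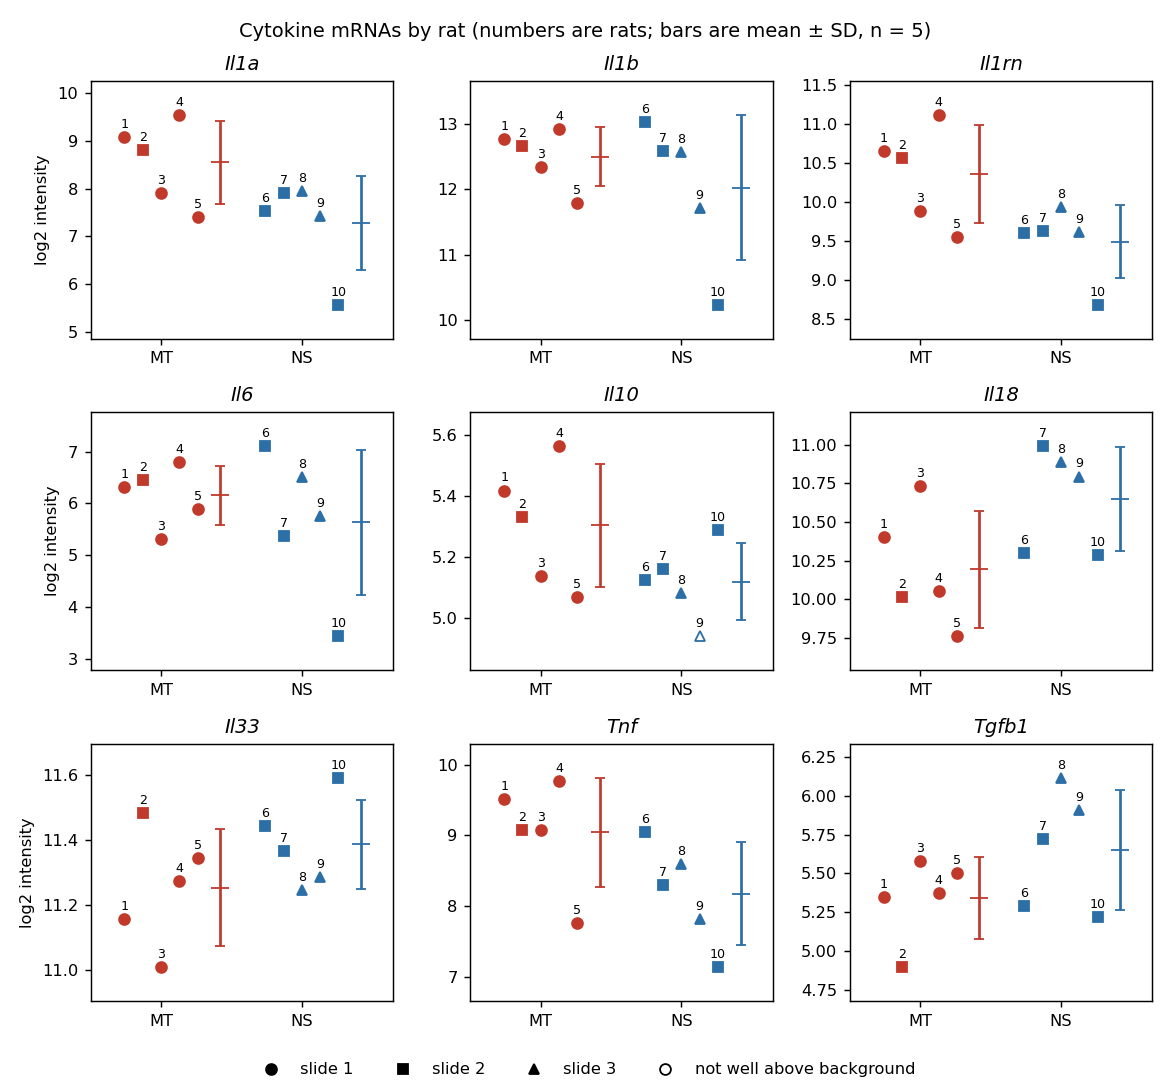
Log2 intensity (quantile normalized) of the 9 cytokine mRNAs in each rat, with MT rats in red and NS rats in blue, point shape for the slide and bars for mean ± SD (n = 5 per group). NS rat 10 lay lowest for Il1a, Il1b, Il1rn, Il6 and Tnf, and the groups overlapped for every gene.

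Il1a encodes interleukin-1α, a cytokine that is active without cleavage and can be released by dying cells. The gene (NM_017019.1) lies on chromosome 3 of GRCr8 from 136979804 to 136990236. In MT rats 1 to 5 the log2 intensity was 9.07, 8.82, 7.92, 9.54 and 7.40, and in NS rats 6 to 10 it was 7.54, 7.91, 7.96, 7.42 and 5.57. MT rats 1, 2 and 4 lay above all NS rats, MT rats 3 and 5 lay among them, and NS rat 10 stood apart at the bottom. The mean was 8.55 ± 0.87 for MT and 7.28 ± 0.98 for NS (SD, n = 5 each), a 2.41-fold difference. The log2 fold change was 1.27 (SE 0.53, 95% interval 0.09 to 2.45), with an adjusted p of 0.278 by limma. The exact two-sided permutation test over 252 assignments of 5 and 5 rats gave P = 0.0873, where the smallest P it can give is 0.00794. Without NS rat 10 the log2 fold change was 0.84, and Il1a then no longer met the study criteria. It also missed them without MT rat 1, 2 or 4 or NS rat 9 (log2 fold changes of 1.14, 1.20, 1.02 and 1.31), with slide as a random block (1.49, adjusted p = 0.760 by limma), with slide as a fixed block or on slide 2 alone (1.81 in both), and with each gene's own variance in place of limma's moderated one (unadjusted P = 0.0623).

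Il1rn encodes the receptor antagonist that limits interleukin-1 signalling, and its values followed those of Il1a from rat to rat. The gene (NM_022194.2) lies on chromosome 3 from 27509836 to 27525738. Its log2 intensity was 10.65, 10.56, 9.88, 11.11 and 9.55 in MT rats 1 to 5, and 9.60, 9.62, 9.93, 9.61 and 8.68 in NS rats 6 to 10. The same MT rats 1, 2 and 4 exceeded all NS rats, MT rat 5 lay below 4 of the NS rats, and NS rat 10 was again the lowest. The means were 10.35 ± 0.63 for MT and 9.49 ± 0.47 for NS (SD, n = 5 each), a 1.82-fold difference. This gave a log2 fold change of 0.86 (SE 0.32, 95% interval 0.15 to 1.57), with an adjusted p of 0.235 by limma and P = 0.0714 by the exact permutation test. Leaving out MT rat 4 gave a log2 fold change of 0.67, which did not meet the study criteria, and leaving out NS rat 10 gave 0.66, which did. On slide 2 alone, MT rat 2 lay 1.26 above the mean of the 3 NS rats, a comparison whose spread comes from NS rats alone.

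Il1b encodes interleukin-1β, the form that caspase-1 cleaves before release. The gene (NM_031512.2) lies on chromosome 3 from 137030200 to 137036581. The log2 intensity was 12.78, 12.67, 12.34, 12.92 and 11.79 in MT rats 1 to 5, and 13.03, 12.59, 12.58, 11.71 and 10.23 in NS rats 6 to 10. NS rat 6 had the highest value of all 10 rats and NS rat 10 the lowest, and no MT rat lay above all NS rats. On the log2 scale the MT mean was higher by 0.47 (SE 0.48, 95% interval -0.60 to 1.55), with an adjusted p of 0.646 by limma. Without NS rat 10 it was 0.02. The mean ± SD was 12.50 ± 0.45 for MT and 12.03 ± 1.11 for NS (n = 5 each).

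Tnf encodes tumour necrosis factor, the founding ligand of its superfamily. The gene (NM_012675.3) lies on chromosome 20 from 3626685 to 3629303. The log2 intensity was 9.52, 9.08, 9.08, 9.77 and 7.77 in MT rats 1 to 5, and 9.05, 8.30, 8.59, 7.81 and 7.14 in NS rats 6 to 10. In the MT group, 4 rats lay above all NS rats, and MT rat 5 lay below 4 of them. The log2 fold change was 0.86 (SE 0.43, 95% interval -0.09 to 1.82), with an adjusted p of 0.347 by limma and P = 0.135 by the exact permutation test. The fold, 1.82, was above that of the study criteria, and the unadjusted P-value was not below 0.05. The criteria were met without MT rat 5 (log2 fold change of 1.18) and without NS rat 6 (1.08).

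Il6 encodes interleukin-6, which signals through STAT3. The gene (NM_012589.1) lies on chromosome 4 from 5889999 to 5894575. The probe was dim, with background-subtracted intensities of 14.5 to 190 (linear scale) over the 10 arrays, and was well above background on each of them. The log2 intensity was 6.32, 6.46, 5.32, 6.80 and 5.90 in MT rats 1 to 5, and 7.10, 5.36, 6.51, 5.76 and 3.44 in NS rats 6 to 10. The highest and the lowest rat of all 10 were both NS rats. The groups differed by a log2 fold change of 0.52 (SE 0.61, 95% interval -0.83 to 1.88), with an adjusted p of 0.690 by limma, and it was -0.02 without NS rat 10. Both Il1b and Il6 thus had intervals that spanned differences from lower to more than 2-fold higher.

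Il18 and Il33 are interleukin-1 relatives with other patterns. Il18 (NM_019165.1; chromosome 8, 59802072 to 59829275) had log2 intensities of 10.40, 10.01, 10.73, 10.05 and 9.76 in MT rats 1 to 5, and 10.30, 10.99, 10.89, 10.79 and 10.28 in NS rats 6 to 10. MT rats 2, 4 and 5 lay below all NS rats, and MT rats 1 and 3 lay among them. For Il18 the log2 fold change was -0.46 (SE 0.21, 95% interval -0.92 to 0.01), with an adjusted p of 0.312 by limma and P = 0.0794 by the exact permutation test. Without MT rat 3 it was -0.59, the single alternative in which Il18 met the study criteria. Il33 (NM_001014166.1; chromosome 1, 237115478 to 237149897) varied little, between 11.01 and 11.48 in MT rats and between 11.24 and 11.59 in NS rats. Its MT minus NS difference was -0.13 (SE 0.10, 95% interval -0.36 to 0.10), with an adjusted p of 0.544 by limma, and 0.02 on slide 2 alone. NS rat 10, the lowest rat for the inflammatory cytokines, had the highest Il33 value of the 10 rats.

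Il10 and Tgfb1 encode cytokines that restrain inflammation, and both had dim probes. Il10 (NM_012854.2; chromosome 13, 45024921 to 45029586) had linear intensities of 9.75 to 57.8. Its spot exceeded the background clearly in all 5 MT rats and in 4 of the 5 NS rats. Its log2 intensity was 5.42, 5.33, 5.14, 5.56 and 5.07 in MT rats 1 to 5, and 5.12, 5.16, 5.08, 4.94 and 5.29 in NS rats 6 to 10, where the value of NS rat 9 was not well above background. For Il10 the log2 fold change was 0.18 (SE 0.11, 95% interval -0.06 to 0.42), with an adjusted p of 0.418 by limma. It was 0.49 under 75th percentile scaling (adjusted p = 0.380 by limma) and 0.05 with normexp background correction. Tgfb1 (NM_021578.2; chromosome 1, 90324312 to 90340627) had linear intensities of 23.2 to 65.7. Its log2 intensity was 5.35, 4.89, 5.58, 5.38 and 5.50 in MT rats 1 to 5, and 5.29, 5.72, 6.12, 5.91 and 5.22 in NS rats 6 to 10, the 2 highest values being those of slide 3. For Tgfb1 the log2 fold change was -0.31 (SE 0.20, 95% interval -0.75 to 0.12), with an adjusted p of 0.450 by limma, and it was -0.07 without slide 3, -0.52 on slide 2 alone and -0.11 under 75th percentile scaling.

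**Figure D2:**
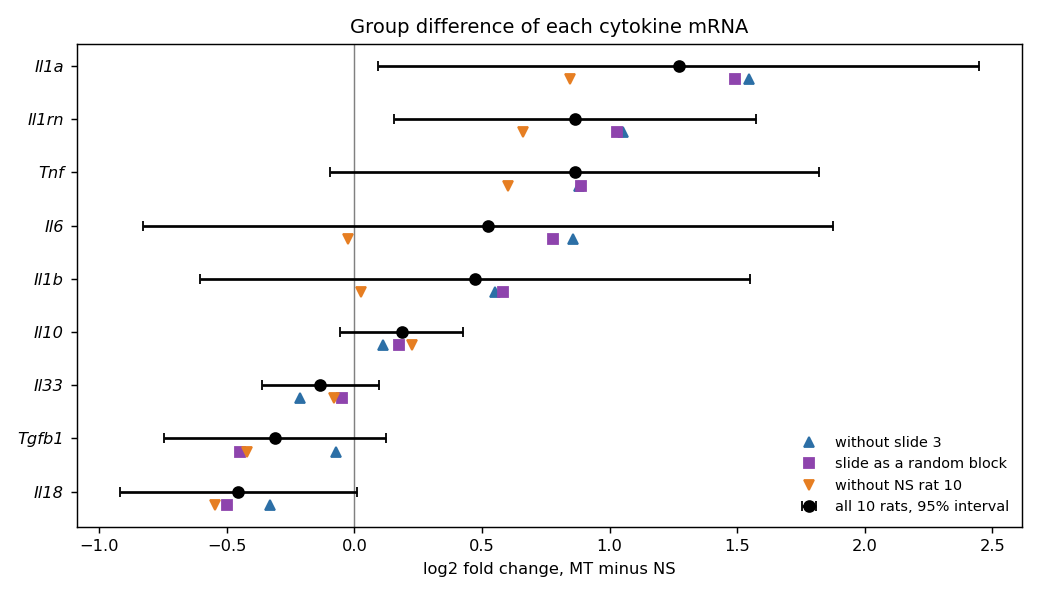
Log2 fold change (MT minus NS) of the 9 cytokine mRNAs, with the value over all 10 rats and its 95% interval (black), and the values without slide 3, with slide as a random block and without NS rat 10. The intervals of Il1a and Il1rn lay above 0, the other 7 included it, and the values of Il1b and Il6 without NS rat 10 were 0.02 and -0.02.

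The 9 genes differed in how much they varied between rats of the same group. The pooled within-group SD of log2 intensity was 1.07 for Il6, 0.93 for Il1a, 0.85 for Il1b, 0.75 for Tnf and 0.55 for Il1rn, against a median of 0.21 over all RNAs. These SDs exceeded those of 98.5%, 97.3%, 96.3%, 94.7% and 89.0% of all RNAs. The probe of Il6 was dim, and its first rank depended on the background handling. With normexp background correction the SE of its log2 fold change was 0.24, and 0.61 in the fit reported. Under that correction the SE was 0.28 for Il1rn, 0.34 for Tnf, 0.36 for Il1a and 0.45 for Il1b. Il18 (0.36) and Tgfb1 (0.33) varied less, and Il10 (0.17) and Il33 (0.16) varied less than most RNAs tested. Without NS rat 10 the SD was 0.67 for Il6, 0.68 for Il1a, 0.50 for Il1b, 0.68 for Tnf and 0.49 for Il1rn, above those of 93.1%, 93.5%, 87.2%, 93.3% and 86.5% of all RNAs, where the median was 0.21. These 5 genes had the widest spread of the 9 with and without that rat.

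The same rats lay at the ends for several of the genes. NS rat 10 had the lowest value of all 10 rats for 5 of the 9 genes, Il1a, Il1b, Il1rn, Il6 and Tnf, while it was the lowest rat for 9.72% of the RNAs with a value on all arrays. MT rat 4 had the highest value of the MT group for 6 genes (20.7% of all RNAs) and MT rat 5 the lowest for 6 (16.9% of all RNAs). The array of NS rat 10 had 79.6% of its spots well above background, the highest share of the NS group, and its slide was shared with MT rat 2 and NS rats 6 and 7.

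**Figure D3:**
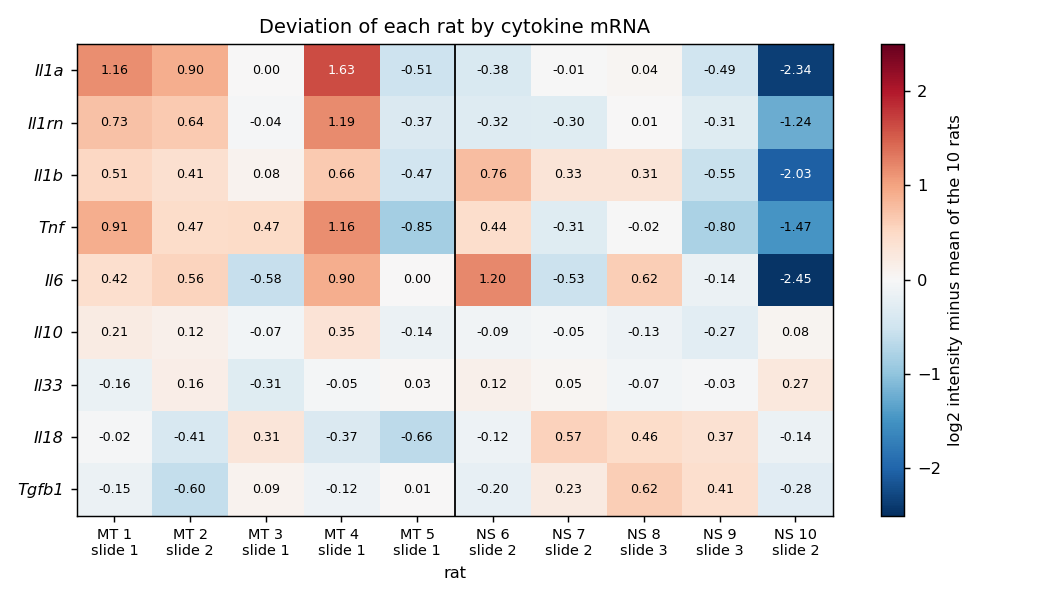
Deviation of each rat from the mean of the 10 rats (log2 scale, printed in each cell) for each cytokine mRNA, with the slide under each rat. NS rat 10 deviated by -2.34 for Il1a, -2.03 for Il1b, -1.24 for Il1rn, -1.47 for Tnf and -2.45 for Il6, but by 0.27 for Il33.

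Correlations over the 10 rats were computed for the 36 pairs of the 9 genes, with 100000 permutations each and Benjamini-Hochberg adjustment over the pairs. By Pearson's r an adjusted permutation p below 0.05 was reached by 8 pairs, and these 8 were among the 10 pairs of Il1a, Il1b, Il1rn, Il6 and Tnf. Over these 10 pairs Pearson's r was 0.71 to 0.98 and Spearman's rho 0.45 to 0.99. With the group means removed, r over the 10 pairs was 0.73 to 0.97, and without slide 3 it was 0.73 to 0.98. Without the 2 rats farthest from the median it ran from 0.18 to 0.97. By Spearman's rho 3 pairs reached an adjusted p below 0.05, those among Il1a, Il1rn and Tnf.

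Il1a and Il1rn formed the closest pair, with r = 0.978 (permutation P = 1e-05, the smallest the permutations can give, adjusted 0.00036) and rho = 0.988 (adjusted 0.00036). Without MT rat 4 and NS rat 10, the 2 rats farthest from the median of Il1a, r was still 0.972. For Il1a and Tnf, r was 0.892 (adjusted permutation p = 0.00324), rho was 0.915 (adjusted 0.00864), and r without the same 2 rats was 0.749. For Il1b and Tnf, r was 0.867 (adjusted permutation p = 0.00528), rho was 0.758 (adjusted 0.102), and r without NS rats 9 and 10 was 0.766. For Il1rn and Tnf, r was 0.885 (adjusted permutation p = 0.00558), rho was 0.879 (adjusted 0.0188), and r without MT rat 4 and NS rat 10 was 0.730. The relations of Il1a with Il1b and Il6 were weaker without those rats. For Il1a and Il1b, r fell from 0.846 (adjusted permutation p = 0.0210) to 0.527 without MT rat 4 and NS rat 10. For Il1a and Il6, it fell from 0.758 (adjusted permutation p = 0.0658) to 0.183. For Il1a and Il10, whose probe was dim, r instead went from 0.528 (adjusted permutation p = 0.281) to 0.936 without the same rats. For Il1rn and Il10 it went from 0.631 (adjusted permutation p = 0.151) to 0.878. Outside these 5 genes, Il18 and Tgfb1 had r = 0.718 (adjusted permutation p = 0.0658) and rho = 0.709, and r was higher, 0.900, without MT rat 5 and NS rat 7.

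**Figure D4:**
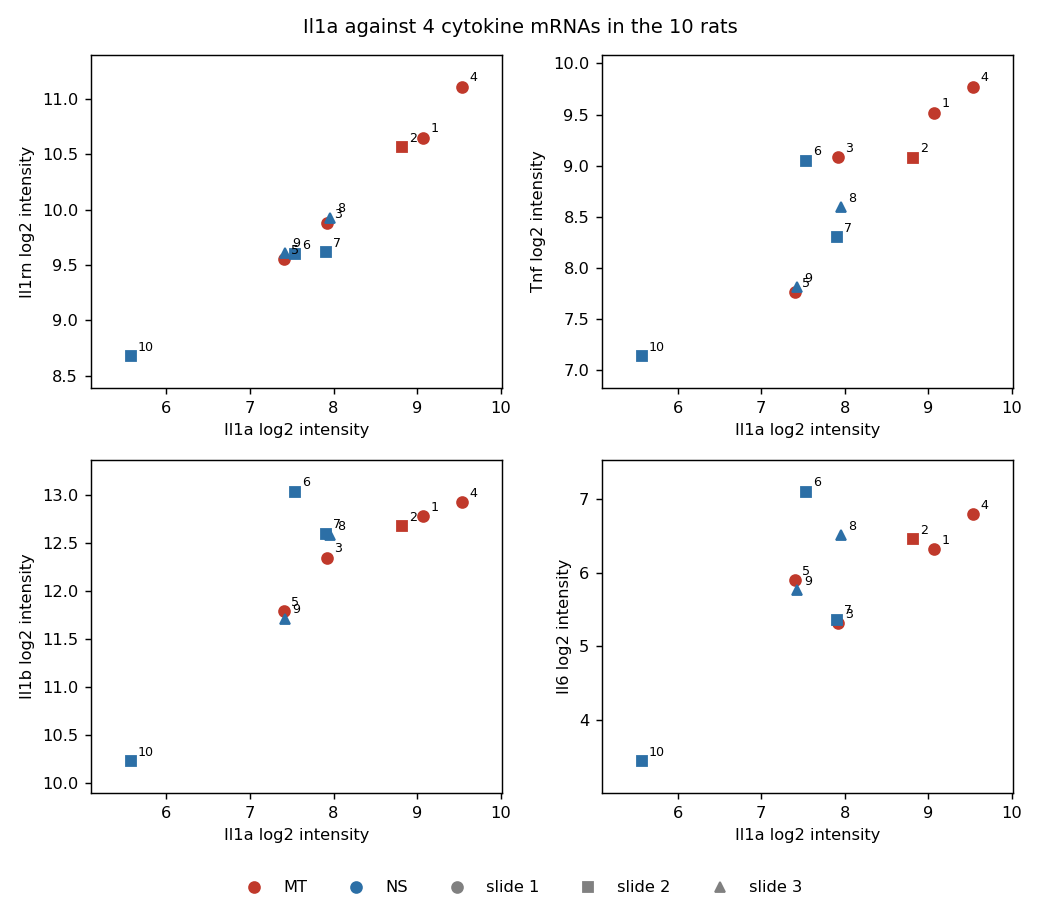
Log2 intensity of Il1a in the 10 rats (x axis) against Il1rn, Tnf, Il1b and Il6 (y axes), with MT rats in red, NS rats in blue, point shape for the slide and rat numbers beside the points. Il1rn followed Il1a along the whole range (r = 0.978), whereas the relation with Il6 had r = 0.183 without MT rat 4 and NS rat 10.

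The named mRNAs most like Il1a and Il1rn were listed among 12456 by Pearson's r over the 10 rats, as a description without a test. The 3 most like Il1a were Pla2g2d (r = 0.986), a secreted phospholipase A2, Il1rn itself (r = 0.978) and Rhbdf2 (r = 0.974), whose product carries the TNF-cleaving protease ADAM17 to the cell surface. The 3 most like Il1rn were Il1a, Pla2g2d (r = 0.973) and Lilrc2 (r = 0.973), a leukocyte immunoglobulin-like receptor gene. Their log2 fold changes between MT and NS were 0.54 for Pla2g2d, 0.31 for Rhbdf2 and 1.69 for Lilrc2, with adjusted p values of 0.265, 0.385 and 0.163 by limma. The values of each rat come from the same RNA, array and slide.

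The receptors, natural inhibitors and activating proteases of these cytokines were looked at by name. Of 17 such genes named, 15 were matched to a probe and 11 passed the filter. The study criteria were met by 0 of the 11, against 2.74% of all RNAs tested, and so few genes cannot show a lack of change. Log2 fold changes were at most 0.50 in size, that of Il10ra, which moved with slide and scaling. An unadjusted P-value below 0.05 was found for 4 of them, against 16.4% of all RNAs. Il18rap and Adam17 were not matched, and Il18r1, Il6st, Tgfbr2 and Tgfbr3 were matched but dim.

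Among the interleukin-1 receptors, the decoy receptor Il1r2 had a log2 fold change of 0.44 (SE 0.18, adjusted p = 0.276 by limma), and 0.18 without slide 3. The accessory protein Il1rap, which the signalling receptor needs, was measured as 2 RNAs with log2 fold changes of 0.09 and 0.28. The interleukin-33 receptor Il1rl1, also measured as 2 RNAs, had -0.25 and -0.49, the former turning to 0.14 under 75th percentile scaling. Il18bp, which neutralizes interleukin-18, had 0.12, and Casp1, the protease that matures interleukin-1β and interleukin-18, had -0.09. None of these passed an adjusted p of 0.05 by limma.

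The interleukin-6 receptor Il6r was the one receptor here whose groups did not overlap, as was the case for 5.64% of all RNAs tested. Its log2 intensity was 9.50, 9.82, 9.65, 9.48 and 9.65 in MT rats 1 to 5, and 10.04, 10.21, 10.13, 9.96 and 9.95 in NS rats 6 to 10, so that the highest MT rat stayed below the lowest NS rat. For Il6r it was -0.44 (SE 0.09), with an adjusted p of 0.0829 by limma, and -0.25 on slide 2 alone. The adjusted p by limma was 0.0472 with the filter on all 10 arrays, 0.0480 with a variance trend and 0.0340 with array weights. It was 0.0772 with 75th percentile scaling, 0.0744 without NS rat 10 and 0.525 with slide as a random block. The interleukin-10 receptor chains Il10ra and Il10rb had log2 fold changes of -0.50 and -0.06, and the TNF receptors Tnfrsf1a and Tnfrsf1b had -0.10 and 0.41. For Il10ra the value was -0.17 without slide 3, -0.20 with 75th percentile scaling and -0.15 with normexp correction, and for Tnfrsf1b it was 0.68 without slide 3. Tgfbr1, a TGF-β receptor kinase, had -0.31 (SE 0.12, adjusted p = 0.251 by limma).

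The wider pathways were read from 9 lists of 148 genes, of which 111 were matched and 96 were tested as 99 RNAs. Of these RNAs, 4 met the study criteria with a higher and 1 with a lower level in the MT group, together 5.05% against 2.74% of all RNAs tested. The mean was higher in the MT group for 47 and lower for 52, with a median log2 fold change of -0.02. Groups without overlap were found for 9 of the 99 (9.09%, against 5.64% of all RNAs tested). One RNA, Socs3, passed an adjusted p of 0.05, and 20 had an unadjusted P-value below 0.05, a call made for 16.4% of all RNAs.

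Socs3, a STAT3 target that feeds back on interleukin-6 receptor signalling, rose in the MT group. Its log2 intensity was 6.62, 6.81, 6.29, 6.85 and 6.50 in MT rats 1 to 5, and 5.99, 5.81, 5.74, 5.81 and 6.04 in NS rats 6 to 10, and the groups did not overlap. The log2 fold change was 0.74 (SE 0.12), with an adjusted p of 0.0467 by limma. The call was lost in 16 alternatives, among them slide as a random block (log2 fold change of 0.81, adjusted p = 0.242), no slide 3 (0.67, adjusted p = 0.165) and the omission of 8 of the 10 rats in turn, MT rat 3 and NS rat 10 being the exceptions. Of the 15 RNAs tested of the interleukin-6 and STAT3 list, it was the single one past the study criteria, which 2.74% of all RNAs tested met.

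Among the 17 RNAs tested of the TNF receptor and signalling list, Birc3 and Zfp36 met the study criteria, as did 2.74% of all RNAs tested. Birc3 encodes an NF-κB-induced inhibitor of apoptosis that joins the TNF receptor complex, and its log2 intensity was 8.98, 8.52, 9.02, 9.00 and 8.26 in MT rats 1 to 5, and 8.01, 7.65, 7.92, 7.29 and 5.78 in NS rats 6 to 10. NS rat 10 was again far below the others, and the log2 fold change was 1.43 (SE 0.39, adjusted p = 0.150 by limma) with it and 1.04 without it. Zfp36 encodes tristetraprolin, which binds Tnf mRNA and hastens its decay, and had 9.29, 9.17, 9.40, 9.22 and 9.02 in MT rats 1 to 5, and 8.81, 8.59, 8.70, 8.22 and 8.19 in NS rats 6 to 10. Its log2 fold change was 0.72 (SE 0.14, adjusted p = 0.0694 by limma). For both genes, the lowest MT rat exceeded the highest NS rat.

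Bcl3, an NF-κB cofactor placed in the interleukin-10 list, had log2 intensities of 11.58, 11.87, 11.11, 11.90 and 11.62 in MT rats 1 to 5, and 10.93, 10.32, 10.74, 10.04 and 9.02 in NS rats 6 to 10. Its log2 fold change was 1.41 (SE 0.33, adjusted p = 0.114 by limma) and 1.11 without NS rat 10. Tnfsf4, the ligand of the T cell receptor OX40, was the gene past the study criteria that was lower in the MT group. It had 5.42, 4.98, 5.31, 5.37 and 5.43 in MT rats 1 to 5, and 5.94, 6.05, 6.74, 6.63 and 5.70 in NS rats 6 to 10, a log2 fold change of -0.91 (SE 0.20, adjusted p = 0.0987 by limma). Both genes had groups that did not overlap. The highest Tnfsf4 values, 6.74 and 6.63, were those of NS rats 8 and 9 on slide 3.

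Lists for the interleukin-1 and TGF-β families held no RNA past the study criteria, which 2.74% of all RNAs tested met. For the interleukin-1 family ligands and inhibitors other than the 9 genes, 3 of 5 RNAs tested had a higher MT mean, and the median of their log2 fold changes was 0.12. Without slide 3 that median was -0.03, and Il1f10 then met the criteria (-0.79). For interleukin-1 receptors and signalling it was -0.09 over 16 RNAs, and for interleukin-1 processing and the inflammasome -0.09 over 9. The TGF-β ligands and activators had a median of 0.10 over 9 RNAs, and the TGF-β receptors and SMAD genes -0.01 over 13. The median was 0.14 over the 15 interleukin-6 and STAT3 RNAs, -0.04 over the 8 of the interleukin-10 list and 0.10 over the 17 of the TNF receptor list. The 7 TNF superfamily ligands and processing genes tested had a lower MT mean, with a median of -0.08, whereas 4 of the 7 did with 75th percentile scaling and 4 without slide 3. Of the 9 list medians, 4 changed sign with that scaling and 3 without slide 3, while the median over all RNAs was 0.07 and 0.01.

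**Figure D5:**
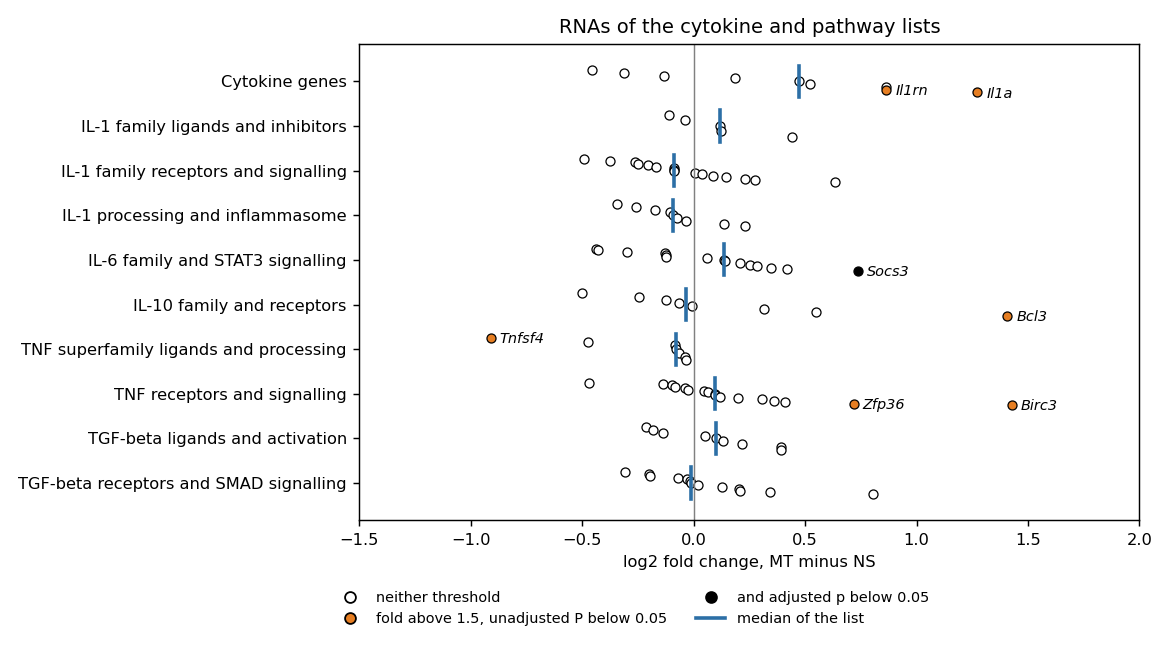
Log2 fold change (MT minus NS) of each RNA tested in the cytokine list and the 9 pathway lists, with 1 point per RNA, named points past the study criteria, a black point past an adjusted p of 0.05 as well, and a blue bar at the median of each list. The pathway points spread to both sides of 0, with Birc3 at 1.43, Bcl3 at 1.41 and Tnfsf4 at -0.91 farthest out.

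Cell type markers were read from the same fit. Of the marker RNAs of the 12 lists, 1 passed an adjusted p of 0.05, a call that 0.197% of all RNAs passed. Of 10 neutrophil markers, 5 were tested. All 5 had a higher MT mean (median log2 fold change of 0.64, and 0.99 with 75th percentile scaling), and the list averaged 5.73 to 6.21 (log2) per MT rat and 4.72 to 5.50 per NS rat. S100a8 (1.44, adjusted p = 0.121 by limma) and Csf3r (0.91, adjusted p = 0.0636) met the study criteria, as did 2.74% of all RNAs tested. Well above background on all 10 arrays were 3 of the 5, so that the other two could pass the filter through the MT group. Of the rest, Mpo, Elane and S100a9 were not matched, and Ltf and Mmp8 were well above background on no array. Of 8 monocyte and macrophage markers, 5 were tested, 3 with a higher and 2 with a lower MT mean (median of 0.43, and 0.29 without slide 3), and the list averaged 8.16 to 8.60 per MT rat and 7.91 to 8.39 per NS rat. Cd163 was dim, and F13a1 and Ms4a7 were not matched. Cd14 had the largest log2 fold change of the 5 tested (1.09, adjusted p = 0.0899 by limma). Of these 5, 2 met the study criteria, both higher in the MT group, against 2.74% of all RNAs tested.

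Of 9 homeostatic microglia markers 8 were tested, and each had a lower MT mean (median log2 fold change of -0.37). The list averaged 11.19 to 11.48 per MT rat and 11.59 to 11.97 per NS rat. Gpr34 fell in the MT group (-0.63, adjusted p = 0.0414 by limma), and Tmem119 had -1.24 (adjusted p = 0.0555). The study criteria were met by these 2 of the 8, against 2.74% of all RNAs tested, and by 1 without slide 3. An unadjusted P-value below 0.05 by limma was found for 7 of the 8, against 16.4% of all RNAs. Astrocyte and oligodendrocyte markers had medians of -0.02 and 0.02, and neuron markers 0.19. Medians were 0.31 for motor neuron, 0.39 for meningeal fibroblast, -0.01 for T, B and NK cell, -0.03 for erythrocyte, -0.07 for endothelial and 0.02 for skeletal muscle markers. Of the 7 T, B and NK cell markers tested, 1 met the study criteria, with a lower MT mean, against 2.74% of all RNAs tested. In NS rat 10 the mean level was the lowest of the NS group for 5 of the 12 lists, those of monocytes and macrophages (7.91), T, B and NK cells (5.89), endothelium (9.17), motor neurons (9.08) and meningeal fibroblasts (8.11). It was the highest for 2, astrocytes (14.57) and oligodendrocytes (15.44), and within the NS range for the others, microglia (11.59) and neutrophils (5.13) among them. The part of these cells in the cytokine values was not tested.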

How the data were processed

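Each rat's lumbar enlargement RNA was labelled and hybridized to its own one-colour Agilent lncRNA array, 5 for MT and 5 for NS. The authors read the spots with Agilent Feature Extraction (version 11.0.1.1) and deposited background-subtracted intensities on a linear scale, together with flags that mark outliers and spots above background. The authors also deposited a table of log2 intensities after quantile normalization, which served as an alternative. Intensities were floored at 1, log2 transformed and quantile normalized (limma 3.58.1, R 4.3.3). Outliers were dropped, and spots were averaged within probes and probes within RNAs. Probes entered the tests with over 50% of spots well above background on 5 or more arrays, so a gene that is dim in one group could pass through the other. Dim values carry more noise, and quantile normalization removes differences shared by all RNAs.

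MT was compared with NS by limma (lmFit and eBayes, group alone) over 20286 RNAs. For the study criteria, the fold was taken as linear (above 1.5) and P as unadjusted (below 0.05). The methods print the fold threshold on the log2 scale, whereas a legend gives it as a plain fold, and the linear reading was used. The words rose and fell were kept for an adjusted p below 0.05. Single values were tested by an exact two-sided permutation over 252 assignments. Gene names and positions came from RefSeq on GRCr8, which named 14274 of 15323 mRNA probes. The array annotation uses an older build, so positions are those of genes, not probes.

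The cytokine genes, pathway lists and marker lists were chosen with earlier results of these data known. Named were all 10 genes, their receptors, inhibitors and proteases, up to 4 genes of each pathway list past the study criteria or the adjusted threshold, and the 3 mRNAs most like each cytokine gene past the study criteria. Marker genes named with a value (S100a8, Csf3r, Cd14, Gpr34, Tmem119) and Il1f10 fall outside this rule and were chosen after their values were seen. Marker lists covered neutrophils, monocytes and macrophages, homeostatic microglia, T, B and NK cells, erythrocytes, endothelium, astrocytes, oligodendrocytes, neurons, motor neurons, meningeal fibroblasts and skeletal muscle.

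Alternatives were 75th percentile scaling, normexp correction (on median spot signals, chosen after the mean signals were not found in the files), the deposited table, no filter, a filter on all 10 arrays, the methods' Student test, a variance trend, array weights, slide as a fixed or random block, slide 2 alone, no slide 3, outliers kept, and each rat left out in turn. The steps were tested on simulated data. Correlations and figures used Python 3.11.15, scipy 1.17.1, pandas 2.3.3 and matplotlib 3.10.9. No rat was excluded.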

Additional observations from a re-analysis of the deposited data

Results flagged for a closer look

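Single rats lay far from the other 4 of their group for 2 cytokine genes and 2 pathway genes, among 54 groups of 5 rats examined by the gap to the nearest rat over the whole range. By chance about 1 in 20 such groups stands out in this way. Il1a was 5.57 (log2 intensity) in NS rat 10 and 7.42 to 7.96 in the other NS rats, and Il1rn was 8.68 in that rat and 9.60 to 9.93 in the others. Without this rat the log2 fold changes were 0.84 for Il1a and 0.66 for Il1rn. Il10rb, a shared chain of interleukin-10 receptors, was 10.40 in MT rat 3 and 10.15 to 10.22 in the other MT rats. Tnfsf4 was 4.98 in MT rat 2 and 5.31 to 5.43 in the others.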

How the results depend on the processing

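No member passed an adjusted p of 0.05 in any of the alternatives run, and 2 of the 9 passed the study criteria in the fit reported. That count was 1 with the Student test, 1 with slide as a random block, 0 with slide as a fixed block and 0 on slide 2 alone, and between 0 and 3 with each rat left out. Il1a met the criteria in 14 of 23 alternatives and Il1rn in 20 of 23. With each rat left out, the log2 fold change of Il6 lay between -0.025 (without NS rat 10) and 0.89, and that of Il33 was 0.016 with slide as a fixed block and on slide 2 alone. For pathway RNAs past the study criteria, 5 in the fit reported, normexp gave 3, slide as a fixed or random block 6, array weights and no slide 3 gave 7, and each rat left out gave 5 to 7 (7 without NS rat 10). For those past an adjusted p of 0.05, 1 in the fit reported, the count was 2 with normexp, 0 with no filter, with the Student test, with slide as a fixed or random block, on slide 2 alone and without slide 3, 4 with the filter on all 10 arrays and with a variance trend, 5 with array weights, and between 0 and 2 with each rat left out. Values near 0 changed sign for Casp1 (between -0.30 and 0.017 with each rat left out), Il10rb (-0.11 to 0.015) and Il18bp (-0.013 to 0.21, and -0.0025 with the fixed block and on slide 2). Larger values also changed sign. An Il1rap RNA with 0.28 in the fit reported had -0.018 with the fixed block and on slide 2. An Il1rl1 RNA with -0.25 in the fit reported had 0.14 with 75th percentile scaling and 0.0069 with normexp. The cause was not tested. The fixed block rests on slide 2, where 1 MT rat is assumed to vary like the NS rats. Signal over background limits the dim probes of Il6, Il10 and Tgfb1. No paired analysis was possible because the rats of the 2 groups share no numbers.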
